A study of Mus musculus with 6 samples.

Results

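Cells detect foreign nucleic acids with a small set of receptors and signalling adaptors, and 10 of these genes, chosen by name (Ifih1, Ddx58, Dhx58, Zbp1, Tlr3, Eif2ak2, Mavs, Adar, Tmem173 and Mb21d1), were read in RNA sequencing libraries of mouse vascular smooth muscle cells. The 10 genes were chosen with earlier results of these data known. All 10 were found by their Ensembl identifiers among the 24970 rows of the deposited gene table. The siPfkfb3 group held 3 samples of primary cells transfected for 48 h with 20 nM of siRNA against Pfkfb3, and the siScrambled group held 3 samples transfected for 48 h with 20 nM of scrambled siRNA. Pfkfb3 encodes an enzyme that makes an activator of glycolysis. The siRNAs used are small double-stranded RNAs that lower the mRNA they are complementary to. The cells of both groups were obtained by collagenase digestion from male C57BL/6 mice aged 6 weeks, kept in growth medium with 10% serum and transfected with the same lipid reagent; the genotype label of the siScrambled samples is WT, and no engineered allele is named for either group. There was no untransfected group. The labels do not say whether the 3 samples of a group came from separate isolations, and the spread that the p-values rest on is that among these samples and may be technical.

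In the cytosol, the helicases encoded by Ddx58 (RIG-I) and Ifih1 bind viral double-stranded RNA and signal through Mavs, an adaptor on the mitochondrial surface, to switch on type I interferon genes. Dhx58 encodes another helicase of this family, one that lacks the signalling domain and modulates the others. Tlr3 senses double-stranded RNA in endosomes, Eif2ak2 (PKR) halts translation when it binds double-stranded RNA, Zbp1 binds nucleic acids in the left-handed Z form and can trigger cell death, and Adar edits adenosine in double-stranded RNA so that the cell's own transcripts are less likely to set off these sensors. Mb21d1 (cGAS) binds DNA in the cytosol and makes a cyclic dinucleotide that activates Tmem173 (STING), an adaptor of the endoplasmic reticulum. Many of these receptors are themselves induced by interferon, through response elements in their promoters.

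Of the 9 genes high enough to be tested, 7 rose in siPfkfb3 cells and 2 fell. The 7 that rose are the RNA sensors Ddx58, Ifih1, Dhx58 and Tlr3, the RNA-binding kinase Eif2ak2, the Z-form sensor Zbp1 and the editing enzyme Adar. The 2 that fell are the adaptors Mavs and Tmem173. The largest rise was that of Zbp1, whose mean in siPfkfb3 cells was 3.35 times that in siScrambled cells, and the largest fall was that of Mavs, at 81.1% of the siScrambled mean. In the same test 36.3% of the 11240 tested genes were called, 15.8% as higher and 20.5% as lower in siPfkfb3. The test was limma on log2(FPKM + 1), where FPKM is a fragment count scaled to gene length and sequencing depth. It was fitted on all genes that averaged 1 FPKM or more, and a gene was called at a Benjamini-Hochberg adjusted p under 0.05. In all 9 tested genes the siPfkfb3 and siScrambled values did not overlap, as for 49.5% of all tested genes; siPfkfb3 lay above in 7 of the 9 (21.8% of all tested genes) and below in 2 (27.7%). By exact permutation, two-sided, p was 0.1 for each of the 9, the smallest value that 3 against 3 samples allow. In bulk libraries like these, fewer cells of a type and less RNA per cell cannot be told apart.

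RefSeq promoter windows (GRCm38.p6, from 250 bases before to 50 after a transcription start) matched 7 of the 10 genes, Adar with 3 starts. No window was matched to Dhx58, Zbp1 or Tmem173, so these were not searched. Stretches of Ddx58, Ifih1 and Eif2ak2, which rose, are shown because each holds 1 match to the core of the interferon-stimulated response element. The core, spelled GAAANNGAAA, was searched on both strands, and each match lies within 50 bases after the start. Adar and Tlr3, which also rose, hold no match to it. The 30 bases around each match follow, 5′ to 3′ on the strand of the gene, with the core in capitals; Ddx58 holds it on the opposite strand, so its capitals read as the reverse complement.
Ddx58, chr4:40239804-40239833, minus strand: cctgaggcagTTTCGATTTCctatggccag
Ifih1, chr2:62646206-62646235, minus strand: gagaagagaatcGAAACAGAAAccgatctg
Eif2ak2, chr17:78882535-78882564, minus strand: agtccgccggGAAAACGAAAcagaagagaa
The core spans positions 3 to 12 from the start in Ddx58, 33 to 42 in Ifih1 and 19 to 28 in Eif2ak2. In the GENCODE M21 annotation the printed stretch of Eif2ak2 lies in the untranslated part of exon 1, that of Ifih1 lies in exon 1 of an annotated transcript, and that of Ddx58 reaches across the start of the gene. No match to the core lies in the windows of Mavs, Tlr3, Mb21d1 or any of the 3 starts of Adar. Over all 27025 genes with windows, 3.99% hold the core in at least 1 window. An NF-kB site, spelled GGGA, any base and TTTCC, occurs in Tlr3 (-211 to -202), against 0.466% of all genes. These matches are descriptions of letters in these windows, not of binding. Counting only the 250 bases before the start leaves 0 of the 7 genes with the response element core.

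**Figure D1:**
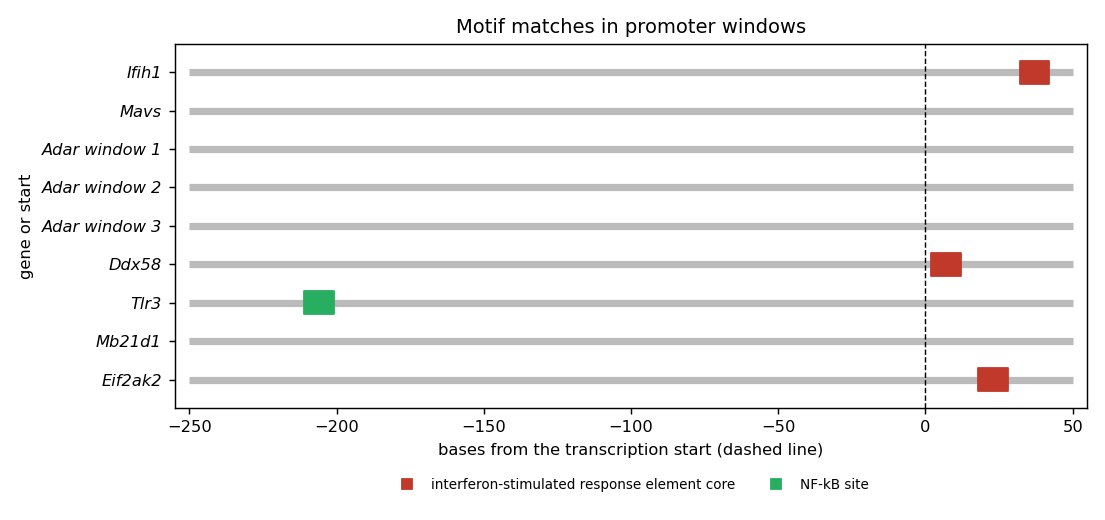
Motif matches in the promoter windows of 7 genes, with distance from the transcription start in bases on the horizontal axis and 1 row per start (3 for Adar). The response element core of Ifih1, Ddx58 and Eif2ak2 lies in the 50 bases after the start, and the windows of Mavs, Adar and Mb21d1 hold no match to either motif drawn.

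The summed FPKM of a library ran from 348630 to 359741, and 11189 to 11247 rows reached 1 FPKM in a library. Mitochondrial transcripts made up 6.56% to 7.08% of the sum in siPfkfb3 libraries and 6.48% to 7.35% in siScrambled libraries. The commonest value among the rows that the authors named as new genes put the relative depth of the libraries within a factor of 1.24, a rough estimate; read numbers are unknown, so no counting interval can be given. The targeted gene, Pfkfb3, stood at 1.92, 1.65 and 1.77 FPKM in siPfkfb3 replicates 1 to 3, against 4.03, 4.02 and 3.86 FPKM in siScrambled (log2 fold change -0.84 ± 0.07 SE, limma, adjusted p = 2.66e-05). The titles of all siPfkfb3 samples name PFKFB3, but the genotype field reads PFKFB4 for replicate 2 and PFKFB5 for replicate 3; Pfkfb3 was low in both. All 12 smooth muscle markers were tested and ran from low to very high levels. Acta2, the smooth muscle actin, stood at 1666 to 1719 FPKM in siPfkfb3 and 1300 to 1378 FPKM in siScrambled, while Myocd, a transcriptional activator of smooth muscle genes, stood at 1.16 to 1.22 FPKM in siPfkfb3 and 1.33 to 1.83 FPKM in siScrambled. Des, the intermediate filament desmin, stood at 0.677 to 1.01 FPKM in siPfkfb3 and 1.06 to 1.37 FPKM in siScrambled. Acta2 was called higher (limma, adjusted p = 2.05e-05). Neither Myocd nor Des was called (limma, adjusted p = 0.172 and 0.0509).

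Ddx58 (chromosome 4, 40203773 to 40239828, minus strand, GRCm38, ENSMUSG00000040296), the RIG-I helicase, was the most abundant sensor. It stood at 32.2, 32.2 and 40.9 FPKM in siPfkfb3 replicates 1 to 3, against 23.1, 20.3 and 21.2 FPKM in siScrambled. All 3 siPfkfb3 libraries lay above all 3 siScrambled libraries, with siPfkfb3 replicate 3 the highest. The mean was 35.1 ± 5.04 FPKM in siPfkfb3 and 21.5 ± 1.44 FPKM in siScrambled (SD, n = 3 each), a log2 fold change of 0.67 ± 0.10 SE (limma, adjusted p = 0.00110). Ifih1 (chromosome 2, 62595798 to 62646255, minus strand, ENSMUSG00000026896), which encodes the helicase that prefers long double-stranded RNA, stood at 10.8, 11.6 and 13.3 FPKM in siPfkfb3 and at 7.86, 5.60 and 7.03 FPKM in siScrambled. Its groups were also apart, and siScrambled replicate 2 was the lowest library. The mean was 11.9 ± 1.30 FPKM in siPfkfb3 and 6.83 ± 1.14 FPKM in siScrambled, 1.75 times as high (log2 fold change 0.73 ± 0.11 SE, limma, adjusted p = 0.00157).

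Dhx58 (chromosome 11, 100694884 to 100704271, minus strand, ENSMUSG00000017830), the helicase without the signalling domain, rose most within this family. It stood at 12.2, 10.5 and 16.5 FPKM in siPfkfb3 replicates 1 to 3 and at 5.36, 3.93 and 6.10 FPKM in siScrambled. The lowest siPfkfb3 library was still above the highest siScrambled one. The siPfkfb3 mean, 13.1 ± 3.07 FPKM, was 2.55 times the siScrambled mean of 5.13 ± 1.10 FPKM (log2 fold change 1.19 ± 0.20 SE, 95% confidence interval 0.71 to 1.67, limma, adjusted p = 0.00497). This interval reaches into those of Ifih1 (0.47 to 0.99) and Ddx58 (0.45 to 0.90), and the differences between the fold changes of the 3 helicases were not tested. In siScrambled cells Dhx58 was the least abundant helicase, and its range overlapped that of Ifih1; in siPfkfb3 cells Dhx58 and Ifih1 overlapped again, both below Ddx58.

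Tlr3 (chromosome 8, 45395665 to 45411080, minus strand, ENSMUSG00000031639), the endosomal sensor, rose least. It stood at 6.98, 7.48 and 8.45 FPKM in siPfkfb3, against 6.32, 6.37 and 5.48 FPKM in siScrambled. The groups were apart by less than 1 FPKM, and siPfkfb3 replicate 1 was close to siScrambled replicate 2. The mean was 7.64 ± 0.745 FPKM in siPfkfb3 and 6.06 ± 0.501 FPKM in siScrambled (log2 fold change 0.29 ± 0.08 SE, limma, adjusted p = 0.0190). Its call ended without siPfkfb3 replicate 3, without siScrambled replicate 3 and without the filter on low values (adjusted p = 0.0680, 0.0726 and 0.0555, over a range of 0.0129 to 0.0726 in the 15 other settings).

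**Figure D2:**
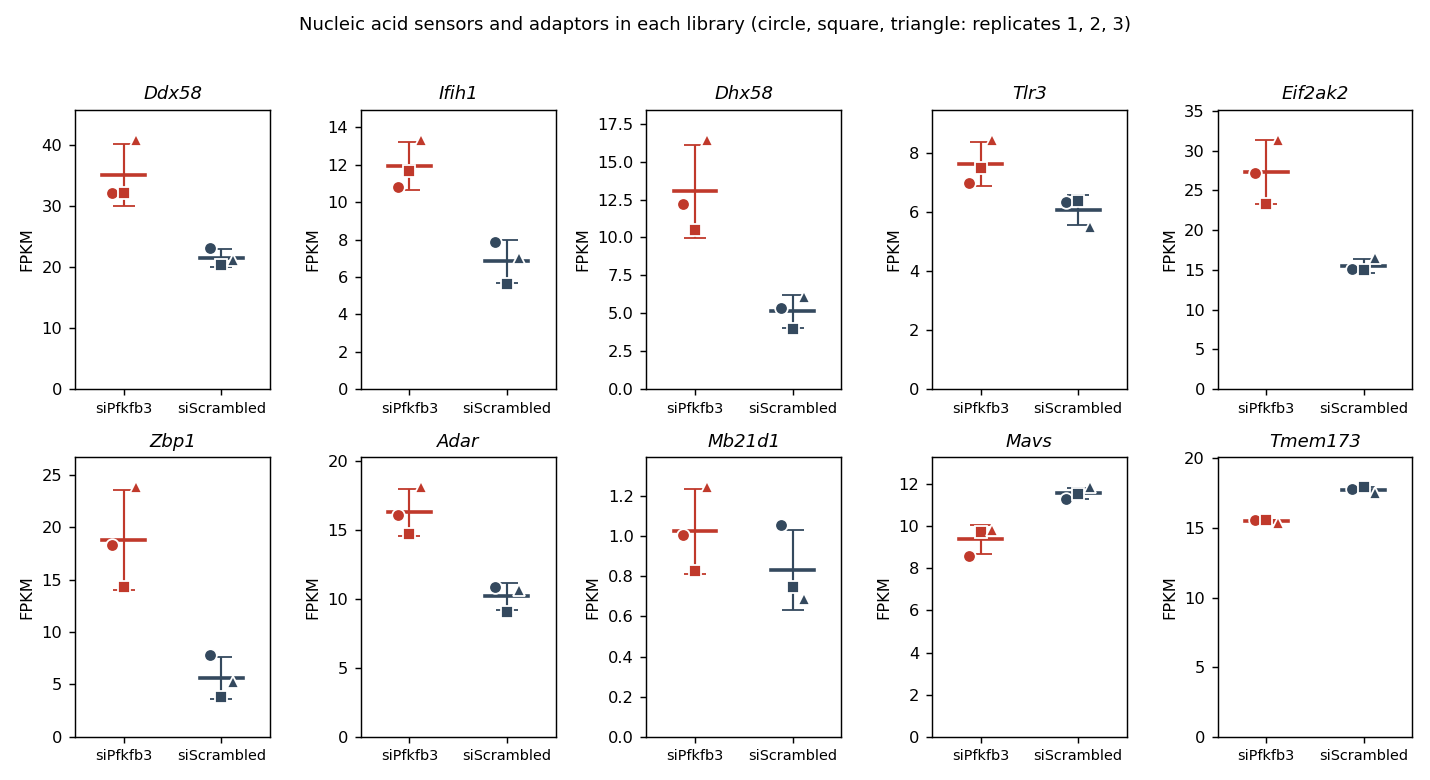
FPKM of the 10 genes in each library, siPfkfb3 left and siScrambled right in each panel; the horizontal bar is the mean, the whisker is 1 SD, and the circle, square and triangle are replicates 1, 2 and 3. Groups are apart in every panel except that of Mb21d1; siPfkfb3 lies above siScrambled in 7 panels and below it for Mavs and Tmem173.

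Eif2ak2 (chromosome 17, 78852564 to 78882573, minus strand, ENSMUSG00000024079), which encodes PKR, the kinase that phosphorylates the translation factor eIF2 alpha, stood at 27.2, 23.3 and 31.4 FPKM in siPfkfb3, against 15.0, 15.0 and 16.5 FPKM in siScrambled. The siScrambled libraries were close together, and each siPfkfb3 library exceeded the highest of them. The mean was 27.3 ± 4.02 FPKM in siPfkfb3 and 15.5 ± 0.875 FPKM in siScrambled (log2 fold change 0.77 ± 0.10 SE, limma, adjusted p = 0.000537). Adar (chromosome 3, 89715022 to 89753446, plus strand, ENSMUSG00000027951), which edits double-stranded RNA, stood at 16.1, 14.7 and 18.1 FPKM in siPfkfb3 and at 10.9, 9.08 and 10.7 FPKM in siScrambled. Its groups were apart, with a mean of 16.3 ± 1.70 FPKM in siPfkfb3 and 10.2 ± 0.977 FPKM in siScrambled (log2 fold change 0.63 ± 0.09 SE, limma, adjusted p = 0.000503). Adar makes a long, interferon-inducible protein and a shorter constitutive one from different starts, and the gene-level values do not separate them.

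Zbp1 (chromosome 2, 173206612 to 173218923, minus strand, ENSMUSG00000027514), the sensor of Z-form nucleic acids, varied most, both between and within the groups. It stood at 18.3, 14.3 and 23.8 FPKM in siPfkfb3 replicates 1 to 3, against 7.82, 3.81 and 5.21 FPKM in siScrambled. In siScrambled the highest library held 2.05 times the lowest, and in siPfkfb3 it held 1.66 times the lowest. The groups stayed apart, with a mean of 18.8 ± 4.76 FPKM in siPfkfb3 and 5.62 ± 2.03 FPKM in siScrambled (log2 fold change 1.60 ± 0.30 SE, 95% confidence interval 0.83 to 2.37, limma, adjusted p = 0.0132). The call ended without siPfkfb3 replicate 1 or siScrambled replicate 3 (adjusted p = 0.0542 and 0.0502, over a range of 0.00296 to 0.0542 in the 15 other settings), with fold changes of 1.60 and 1.58.

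Mb21d1 (chromosome 9, 78430526 to 78443237, minus strand, ENSMUSG00000032344; Cgas in the reference), the DNA sensor, was the one gene of the 10 below the filter. It stood at 1.00, 0.825 and 1.24 FPKM in siPfkfb3, against 1.06, 0.748 and 0.687 FPKM in siScrambled. The groups overlapped. In a fit without a filter, over 18366 genes, its log2 fold change was 0.15 with a 95% confidence interval of -0.13 to 0.42 (limma, adjusted p = 0.462), and an exact permutation test, two-sided, gave p = 0.3. Changes within that interval are compatible with these values, so neither a rise nor a fall was established.

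The adaptors were lower in siPfkfb3. Mavs (chromosome 2, 131234063 to 131248025, plus strand, ENSMUSG00000037523), onto which RIG-I and the Ifih1 helicase dock, stood at 8.58, 9.73 and 9.83 FPKM in siPfkfb3 and at 11.3, 11.5 and 11.8 FPKM in siScrambled. All siPfkfb3 values lay below all siScrambled values, with siPfkfb3 replicate 1 the lowest. The mean was 9.38 ± 0.696 FPKM in siPfkfb3 and 11.6 ± 0.271 FPKM in siScrambled (log2 fold change -0.28 ± 0.06 SE, limma, adjusted p = 0.00612). Tmem173 (chromosome 18, 35733679 to 35740554, minus strand, ENSMUSG00000024349), the STING adaptor downstream of cGAS, stood at 15.5, 15.6 and 15.4 FPKM in siPfkfb3, against 17.8, 17.9 and 17.5 FPKM in siScrambled. It was the steadiest of the 10 genes, with a highest library 1.01 times the lowest in siPfkfb3 and 1.02 times in siScrambled. The mean was 15.5 ± 0.0994 FPKM in siPfkfb3 and 17.8 ± 0.197 FPKM in siScrambled, 87.2% as high (log2 fold change -0.19 ± 0.04 SE, limma, adjusted p = 0.00754). Both falls are of a size that is common in these libraries: the 5th and 95th percentiles of all tested genes were -0.46 and 0.41 on the log2 scale, the rise of Tlr3 also lies between them, and the other 6 rises lie above the 95th. The median of the 9 tested genes was 0.67, against -0.02 over all tested genes.

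**Figure D3:**
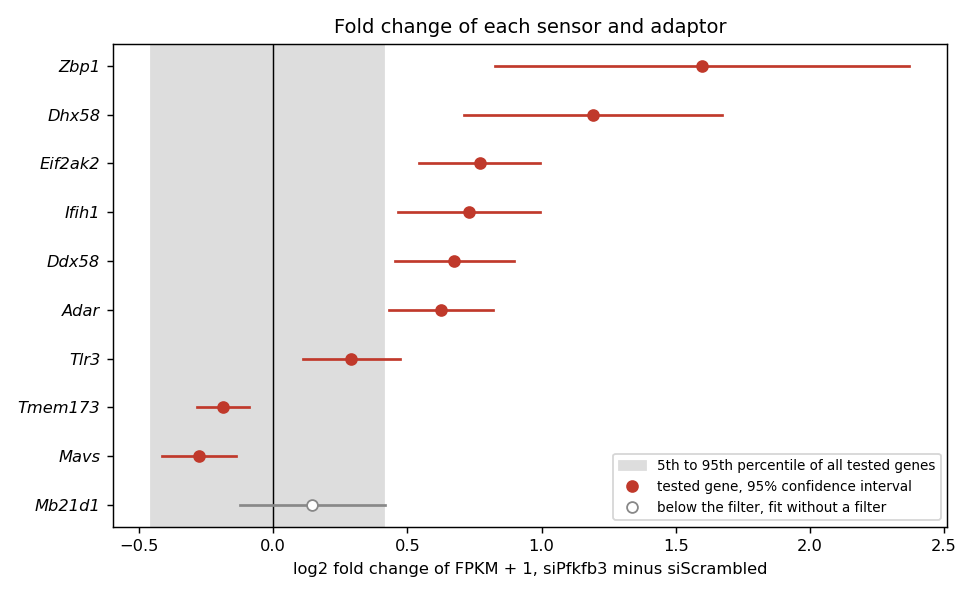
Log2 fold change of FPKM + 1, siPfkfb3 minus siScrambled, with 95% confidence intervals from limma; the grey band is the 5th to 95th percentile of all tested genes and the open circle is Mb21d1 in the fit without a filter. Zbp1 (1.60) and Dhx58 (1.19) lie furthest to the right, and Tmem173 (-0.19) and Mavs (-0.28) lie below 0 within the band.

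Since FPKM is scaled to gene length, levels can be set side by side between genes. In siPfkfb3 cells the order by mean FPKM was Ddx58, Eif2ak2, Zbp1, Adar, Tmem173, Dhx58, Ifih1, Mavs, Tlr3 and Mb21d1. The libraries of neighbours overlapped in range from Eif2ak2 down to Ifih1, while Ddx58, Mavs, Tlr3 and Mb21d1 stood clear of their neighbours. In siScrambled cells the order was Ddx58, Tmem173, Eif2ak2, Mavs, Adar, Ifih1, Tlr3, Zbp1, Dhx58 and Mb21d1, and ranges overlapped between neighbours from Ifih1 down to Dhx58. Zbp1 thus stood in place 3 in siPfkfb3 and in place 8 in siScrambled, and Tmem173 in places 5 and 2. Summed over the 10 genes, the level was 140 to 179 FPKM in siPfkfb3 libraries and 94.3 to 107 FPKM in siScrambled libraries.

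Libraries of a group differed partly in step across the genes that rose. Replicate 3 was the highest siPfkfb3 library for all 7 of them. Replicate 2 was the lowest siScrambled library for 6 of the 7, Tlr3 being the exception. The lowest siPfkfb3 library was replicate 1 for 3 of the 7 and replicate 2 for 4. The highest siScrambled library was replicate 1 for 4, replicate 2 for 1 and replicate 3 for 2. Without siPfkfb3 replicate 3 the fold changes on the log2 scale were 1.42 for Zbp1, 1.02 for Dhx58, 0.67 for Eif2ak2, 0.65 for Ifih1, 0.56 for Ddx58, 0.55 for Adar and 0.22 for Tlr3, and 6 of the 7 were still called. Replicate 3 was also the highest siPfkfb3 library for Mavs but the lowest for Tmem173, and the lowest siScrambled library was replicate 1 for Mavs and replicate 3 for Tmem173. Without siPfkfb3 replicate 3 Mavs and Tmem173 stood at -0.31 and -0.18, both still called. What set the order of the libraries was not tested.

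**Figure D4:**
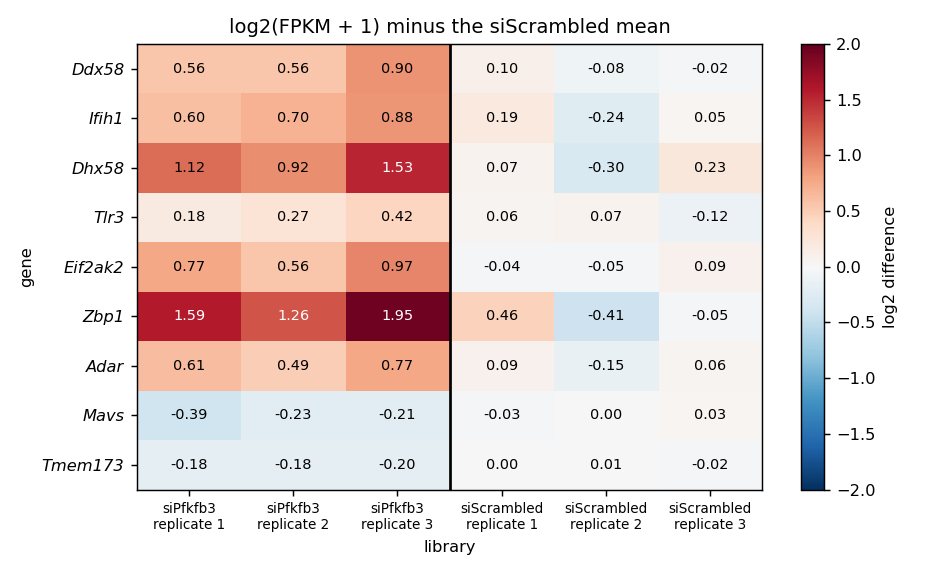
Log2(FPKM + 1) of the 9 tested genes in each library, minus the siScrambled mean of the gene; rows are genes, columns are libraries, siPfkfb3 left of the black line. Zbp1 ranges from 1.26 to 1.95 in siPfkfb3 and from -0.41 to 0.46 in siScrambled, whereas Tmem173 stays between -0.20 and -0.18 in siPfkfb3 and between -0.02 and 0.01 in siScrambled.

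Genes with the most similar profiles were found by the root mean square distance between values of log2(FPKM + 1) over the 6 libraries, each centred on its siScrambled mean. The nearest to Zbp1 were Oasl2 (distance 0.0871), Irf7 (0.116) and Usp18 (0.136), and the nearest to Dhx58 was Ifi204 (0.109). Ifih1 lay nearest to Oas1b (0.0572) and Dtx3l (0.0689), and Ddx58 to Gbp7 (0.0504), Oas1b (0.0579) and Trim21 (0.0660). Eif2ak2 lay nearest to Sp100 (0.0587) and Sp110 (0.0775), and Adar to Ifi35 (0.0479) and Ube2l6 (0.0485). Tlr3 had Papolg (0.0274) and Dcaf6 (0.0396) as its nearest, Mavs had Loxl4 (0.0165) and Acaa2 (0.0229), and Tmem173 had Dag1 (0.0102) and Cstf2 (0.0141). These distances are descriptions; small changes give small distances, so they are not comparable between Zbp1 and Tmem173. No sensor or adaptor was among the 3 nearest of another.

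Interferon ligands are the usual product of this pathway, and their transcripts were at or near 0. Of 21 listed type I, II and III interferon genes, 19 were listed at 0 in all 6 libraries. Ifnb1, which encodes interferon beta, was listed at 0 in every library but 1 siPfkfb3 library, where it stood at 0.0563 FPKM. Ifnz stood at 0.0730 to 0.118 FPKM in siPfkfb3 and 0.0257 to 0.0952 FPKM in siScrambled. A value of exactly 0 may be an estimate that failed, and the samples were taken at 48 h alone.

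The genes that work with these sensors were called about as often as genes in general. Over 6 lists naming 127 genes, chosen with earlier results of these data known, 116 genes were tested, of which 27 rose, 16 fell and 73 were not called. That is 37.1% called, 23.3% higher and 13.8% lower, against 36.3%, 15.8% and 20.5% of all tested genes. Their median log2 fold change was 0.02, against -0.02 over all tested genes. Without 1 library at a time, 21 to 26 were called higher and 8 to 12 lower; the count lower was 10 without siPfkfb3 replicate 2, and 10, 8 and 9 without siScrambled replicates 1, 2 and 3.

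Among signalling partners of the RIG-I-like receptors, 7 of 30 tested genes rose and 2 fell, with a median log2 fold change of 0.03; 23.3% were higher and 6.67% lower, against 15.8% and 20.5% of all tested genes. In 11 of the 15 other settings, all but 1 of the 6 that leave out a library among them, 1 was called lower. With a minimum mean of 5 FPKM, only 20 of the 30 genes were still tested. Irf7, an interferon-inducible transcription factor that acts below Mavs, stood at 25.5, 21.6 and 33.1 FPKM in siPfkfb3 replicates 1 to 3, against 9.62, 5.95 and 8.70 FPKM in siScrambled. The groups were far apart and replicate 3 was again the highest siPfkfb3 library (log2 fold change 1.61, limma, adjusted p = 0.00391). Pcbp2, known in human cells to promote the breakdown of the MAVS protein, averaged 146 ± 1.96 FPKM in siPfkfb3 and 107 ± 10.2 FPKM in siScrambled (SD, n = 3 each; limma, adjusted p = 0.000512). Traf6, a ubiquitin ligase below both Mavs and Toll-like receptors, averaged 3.82 ± 0.358 FPKM in siPfkfb3 and 2.83 ± 0.135 FPKM in siScrambled (limma, adjusted p = 0.00897). Gpatch3 was called higher by a small margin (limma, adjusted p = 0.0462), and that call ended in 9 of 14 other settings (adjusted p from 0.0285 to 0.130). The kinase Tbk1 and the transcription factor Irf3, which carry the signal from Mavs to interferon genes, were not called: Tbk1 averaged 11.2 FPKM in siPfkfb3 and 11.1 FPKM in siScrambled, and Irf3 averaged 17.9 FPKM in siPfkfb3 and 17.8 FPKM in siScrambled. Both were named after their values were seen.

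In the cytosolic DNA pathway, 6 of 25 tested genes rose and 5 fell, with a median log2 fold change of 0.03; 24% were higher and 20% lower, against 15.8% and 20.5% of all tested genes. Without siScrambled replicate 1, 3 were called lower. The largest rises were in 3 interferon-inducible genes of the Ifi200 family, whose proteins bind DNA. Ifi204 averaged 15.6 ± 3.89 FPKM in siPfkfb3 and 5.84 ± 0.723 FPKM in siScrambled (log2 fold change 1.25, limma, adjusted p = 0.00263). Ifi203 and Ifi205 changed by 0.99 and 1.08 on the log2 scale. The 3 are close paralogs, and how reads that match several of them were assigned is not given in the sources used here, so their separate values are uncertain. The call of Ifi205 ended without siPfkfb3 replicate 1 (limma, adjusted p = 0.0504, over a range of 0.00243 to 0.0504). Rnaseh2a, the catalytic subunit of the RNase H2 complex that removes RNA from DNA, averaged 4.38 ± 0.205 FPKM in siPfkfb3 and 5.71 ± 0.729 FPKM in siScrambled (log2 fold change -0.31, limma, adjusted p = 0.0168). Its call ended without siScrambled replicate 1 (adjusted p = 0.0576, over a range of 0.00801 to 0.0576 under limma). The accessory subunits Rnaseh2b and Rnaseh2c, named after their values were seen, fell by 0.23 and 0.27 on the log2 scale (limma, adjusted p = 0.0165 and 0.00446).

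On the endosomal Toll-like receptor list, which also holds adaptors and surface receptors, 5 of 17 tested genes rose and 3 fell. That is 29.4% higher and 17.6% lower, against 15.8% and 20.5% of all tested genes. The 5 that rose were Tlr4, Tlr6, Myd88, Traf6 and Lgmn. The receptors Tlr7, Tlr8, Tlr9 and Tlr13 and the adaptor Ticam2 were under 0.15 FPKM in every library and were not tested. The count lower was 1 without siPfkfb3 replicate 2, or without siScrambled replicate 2 or 3. It was also 1 under TPM and trimmed mean scaling and with either other filter. With a minimum mean of 5 FPKM, only 12 of the 17 genes were still tested, and 3 were called higher. Ticam1, the adaptor through which Tlr3 signals, was not called; it averaged 5.41 ± 0.525 FPKM in siPfkfb3 and 5.87 ± 0.156 FPKM in siScrambled and was named after its values were seen. Lgmn, a lysosomal protease that processes endosomal receptors, averaged 89.5 ± 2.40 FPKM in siPfkfb3 and 68.6 ± 0.760 FPKM in siScrambled (log2 fold change 0.38, limma, adjusted p = 2.89e-05).

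Of the 4 eIF2 alpha kinases, Eif2ak2 alone was called higher by limma. On the list of eIF2 alpha kinases and eIF2 control, which leaves Eif2ak2 out, 1 of 16 tested genes rose and 1 fell, 6.25% each way, against 15.8% higher and 20.5% lower of all tested genes. Eif2b1, a subunit of the exchange factor of eIF2, rose (log2 fold change 0.25, limma, adjusted p = 0.00542). Eif2ak1, the haem-regulated eIF2 alpha kinase, averaged 9.37 ± 0.102 FPKM in siPfkfb3 and 10.6 ± 0.516 FPKM in siScrambled, a fall whose call ended in 8 of 15 other settings, among them those without any 1 library other than siScrambled replicate 1.

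Among other genes of double-stranded RNA binding and editing, 6 of 24 tested genes rose and 2 fell, with a median log2 fold change of -0.07; 25% were higher and 8.33% lower, against 15.8% and 20.5% of all tested genes. Without siScrambled replicate 3, 3 were called higher, and without siPfkfb3 replicate 2 or siScrambled replicate 1 or 2, 1 was called lower. Ddx60, a helicase reported to aid RIG-I in human cells, averaged 2.32 ± 0.246 FPKM in siPfkfb3 and 0.983 ± 0.0229 FPKM in siScrambled (log2 fold change 0.74, limma, adjusted p = 0.000147). Pnpt1, an exonuclease that limits double-stranded RNA in mitochondria, averaged 11.7 ± 0.835 FPKM in siPfkfb3 and 8.82 ± 0.541 FPKM in siScrambled (log2 fold change 0.37, limma, adjusted p = 0.00194). Its partner helicase Supv3l1 was called at 0.26 (limma, adjusted p = 0.0179), a call that ended in 3 of 14 other settings. Stau1, which binds double-stranded stretches of mRNA, averaged 28.3 ± 1.36 FPKM in siPfkfb3 and 36.2 ± 1.02 FPKM in siScrambled (log2 fold change -0.34, limma, adjusted p = 0.000385).

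Among the partners of Zbp1 in regulated necrosis, 3 of 11 tested genes rose and 4 fell; 27.3% were higher and 36.4% lower, against 15.8% and 20.5% of all tested genes. The count lower was 1 without any 1 of the siScrambled libraries. It was 2 without siPfkfb3 replicate 1 or 3, under each other scaling and with either other filter. With a minimum mean of 5 FPKM, only 8 of the 11 genes were still tested. Cflar, an inhibitor of caspase 8, averaged 20.3 ± 0.744 FPKM in siPfkfb3 and 15.8 ± 0.764 FPKM in siScrambled (log2 fold change 0.34, limma, adjusted p = 0.000738). Ripk3, the kinase that Zbp1 binds, averaged 14.8 ± 0.366 FPKM in siPfkfb3 and 17.1 ± 0.200 FPKM in siScrambled (log2 fold change -0.19, limma, adjusted p = 0.00802); it was named after its values were seen. The calls of Tnfaip3, Gsdmd and Fadd on this list were close to the threshold and ended in 6 of 14, 7 of 15 and 10 of 14 other settings.

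**Figure D5:**
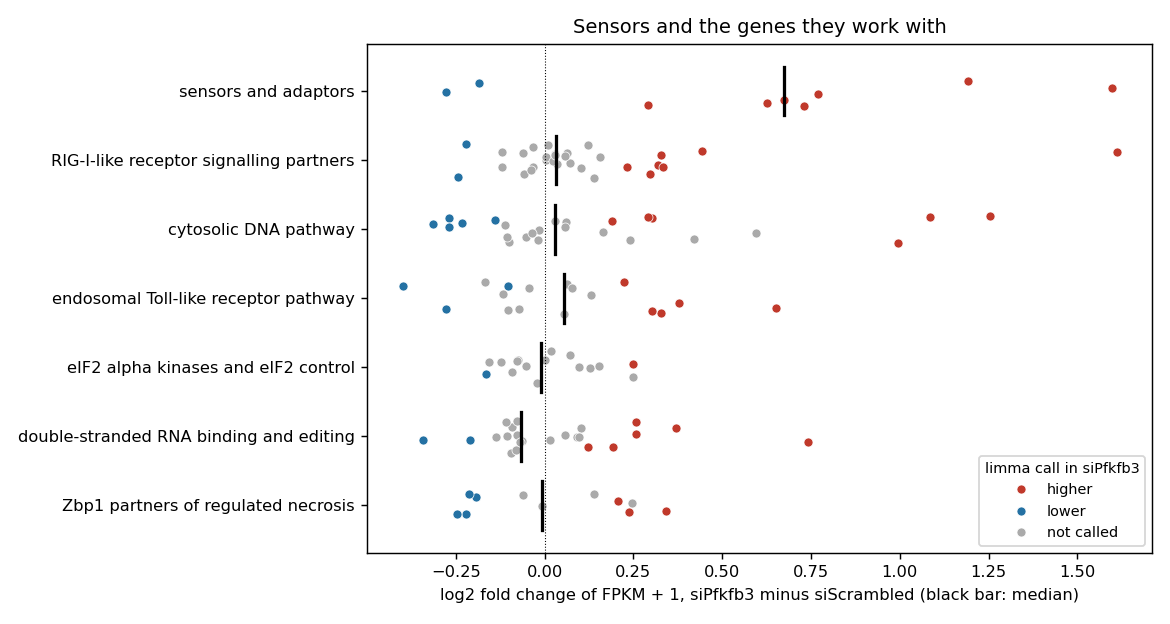
Log2 fold change of FPKM + 1, siPfkfb3 minus siScrambled, for every tested gene of the sensors and adaptors and of the 6 pathway lists; colour gives the call by limma. The sensors and adaptors have a median of 0.67, and the medians of the 6 lists lie between -0.07 and 0.05.

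Markers of other cell types are given here beside the sensors. Of 16 macrophage and leukocyte markers 3 were tested and none was called by limma; 9 were under 0.15 FPKM in every library, 6 of these at 0 throughout, and Ptprc, the common leukocyte antigen, was at most 0.0179 FPKM. Their summed level was 16.3 to 17.3 FPKM in siPfkfb3 and 15.4 to 15.7 FPKM in siScrambled, of which Lyz2, a lysozyme, held 13.4 ± 0.312 FPKM in siPfkfb3 and 12.2 ± 0.0970 FPKM in siScrambled (limma, adjusted p = 0.0563). In the 15 other settings the adjusted p of Lyz2 under limma ran from 0.0297 to 0.143, so its call depended on the setting. Of 12 endothelial markers, the junction genes Pecam1 and Cdh5 were at most 0.106 and 0.0627 FPKM in any library. The 2 tested, Erg and Ptprb, both rose, by 0.54 and 0.42 on the log2 scale. Tek, below the filter, went the other way, at 0.360 to 0.567 FPKM in siPfkfb3 and 0.859 to 0.974 FPKM in siScrambled. The sum of the 12 was 21.9 to 24.1 FPKM in siPfkfb3 and 15.9 to 16.4 FPKM in siScrambled. Most of it came from Erg and Ptprb. They averaged 13.8 and 7.39 FPKM in siPfkfb3 and 9.19 and 5.24 FPKM in siScrambled. Of 12 adventitial fibroblast markers 2 rose and 9 fell, 16.7% and 75% of those tested. Among all tested genes 15.8% were called higher and 20.5% lower. Cd34, a marker of progenitor-like fibroblasts, was at -1.05 on the log2 scale. The sum of the fibroblast markers was 998 to 1006 FPKM in siPfkfb3 and 1129 to 1174 FPKM in siScrambled. Of 12 smooth muscle markers 4 rose and 1 fell, 33.3% and 8.33% of those tested. The part of these shifts in the values of the sensors was not tested.

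Exons of 5 of the 10 genes overlap a gene on the opposite strand, and whether fragments were counted by strand is not given in the sources used here, so these values are uncertain to that extent. The genes are Dhx58, Tlr3, Eif2ak2, Adar and Mb21d1. Chrnb2, which overlaps Adar, stood at 0.0550 to 0.0847 FPKM in siPfkfb3 and 0.0425 to 0.126 FPKM in siScrambled. No values of the other overlapping genes were used here.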

How the data were processed

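Primary mouse vascular smooth muscle cells were sequenced as 3 siPfkfb3 and 3 siScrambled mRNA libraries; samples were grouped by title. The authors deposited 1 table of FPKM per gene; the submitters' processing notes name HISAT2 as a tool and GRCm38 (mm10) as the build. The version of HISAT2, the counting tool, its strand setting and its annotation are not given. The table holds no counts, so read depth is unknown and no count test was run. Same-numbered libraries did not deviate together in all pairs, so the main fit has no replicate block. The 11240 genes averaging 1 FPKM or more were tested on log2(FPKM + 1) with limma 3.58.1 in R 4.3.3 (trend and robust options, Benjamini-Hochberg adjustment); a fold change on this scale understates the change of low genes. The fit was tested on simulated data. Gene positions come from GENCODE M21 and promoter windows from RefSeq (GRCm38.p6). The genes and the lists were chosen with earlier results of these data known. Named from each list were the called genes with the largest absolute log2 fold change, up to 4, and, for each tested sensor or adaptor, genes among the 3 with the nearest profile; 1 of these genes and 1 searched motif are not reported here. Alternatives were other pseudocounts (0.1, 0.5), filters (none, 5 FPKM), scalings (TPM computed from the deposited FPKM, trimmed mean, quantile), a fit without the trend and robust options, a replicate block, and leaving out each library.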

Additional observations from a re-analysis of the deposited data

How the results depend on the processing

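Over 15 other settings, 130 of 135 refitted values of the 9 tested sensors and adaptors kept their direction and their side of the threshold, 5 lost the call and none reversed. Leaving out 1 library at a time, the log2 fold change of Zbp1 ranged from 1.39 to 1.83 and that of Tlr3 from 0.22 to 0.35; each lost its call in 2 of these 6 fits, which had fewer samples. Without the filter on low values Tlr3 kept 0.29 and lost its call; more genes were tested there (18366). The pathway lists' count of lower calls ranged from 8 to 12 with 1 library left out, against 16; those fits had fewer samples. With the 250 bases before the start alone, 0 genes held the response element core. Of 841 refitted values of the other 57 named genes, 57 lost and 8 gained a call and none reversed. TPM scaling called 1950 genes higher and 2038 lower, trimmed mean scaling 2020 and 2029, and quantile normalization 1982 and 2042, against 1775 and 2304. The deviations of same-numbered libraries correlated at -0.114, 0.0598 and 0.055. With 3 samples per group these values cannot settle whether the samples were paired. With a replicate block 3907 genes were called, against 4079, 7 sensors higher and 2 adaptors lower. Read depth is unknown, and Mb21d1 was too low to be tested with the filter.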

Other observations

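Receptors of the Toll-like family that act at the cell surface moved in both directions. Tlr4, the receptor of bacterial lipopolysaccharide, stood at 9.22, 8.21 and 9.55 FPKM in siPfkfb3, against 5.50, 5.41 and 5.14 FPKM in siScrambled (log2 fold change 0.65, limma, adjusted p = 6.98e-05). Tlr1, which pairs with Tlr2 to sense bacterial lipopeptides, averaged 0.804 ± 0.00469 FPKM in siPfkfb3 and 1.38 ± 0.133 FPKM in siScrambled (SD, n = 3 each; log2 fold change -0.40, limma, adjusted p = 0.00583).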
